A study of Mus musculus with 8 samples.

Results

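Genes for matricellular proteins and for fibronectin, namely Sparc, Postn, Tnc, Thbs1, Thbs2, Thbs3, Thbs4, Fn1, Cthrc1 and Comp, were followed in mouse skin. These 10 members were taken by gene symbol from a table of 24612 genes, all 10 were found, and all 10 passed the filter on low values (at least 10 in at least 2 libraries). RNA sequencing libraries were made from skin homogenates, 2 of a phosphate-buffered saline (PBS) group, 3 of a bleomycin group and 3 of a celastrol group. All groups were male C57BL/6J animals bought at 4 weeks of age, treated from 6 weeks and sampled at 21 days. The PBS group received 0.1 mL PBS and the bleomycin group 0.1 units of bleomycin, both under the skin. The celastrol group received celastrol into the peritoneum each day, in a dose of either 1 or 2 mg per kg of body weight. Which of these doses each mouse had, and whether bleomycin was given to it as well, is not in the labels. The libraries of a group are not stated to come from separate animals, so p-values measure the spread between these libraries.

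Bleomycin damages DNA and is injected into mouse skin to produce a fibrosis used as a model of systemic sclerosis. Celastrol is a triterpenoid from a medicinal vine. Matricellular proteins are secreted into the extracellular matrix, where most of them act on cell receptors and on the assembly of collagen fibres rather than as load-bearing fibres themselves. In skin they come largely from fibroblasts, and several are induced by transforming growth factor beta during wound repair. Fibronectin is a glycoprotein that cells assemble into fibrils through integrins, and it is an early scaffold for collagen deposition.

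Values below are the authors' normalized values on a linear scale unless a log2 scale is named, and libraries are called by the number in their title. The values of a library summed to between 22900000 and 26400000, and the depth estimated from the value of a single read ran from 14900000 reads in Celastrol 3 to 37100000 in Celastrol 5. Celastrol 2 stood apart on the first principal component, which held 32.7% of the variance, with a score of 237.5 against -57.3 to -3.63 in the others. The labelled tissue, skin, was checked with 7 basal epidermis markers, which summed to between 142651 and 229865 with none at 0 throughout a group. The summed value of 11 dermal fibroblast markers was 47062 and 47498 in PBS, 11952 to 17650 in bleomycin and 10431 to 21827 in celastrol. In these bulk samples, fewer cells of a type and less RNA per cell cannot be told apart.

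The stretch upstream of the transcription start is printed for 3 members whose PBS and celastrol libraries did not overlap: Postn and Tnc, which were higher, and Thbs3, which was lower. Each holds the 120 bases before a RefSeq start on GRCm38.p6, on the gene's strand, from 5′ to 3′. RefSeq windows were matched by symbol for 6 of the 10 members. RefSeq lists 2 starts for Postn and 2 for Tnc, and 1 stretch of each is shown. Stretches that lie wholly or partly in an annotated exon, those of Sparc and of the other Tnc start, are not shown, and of the Postn starts the one beside the annotated gene start was taken. Capitals mark matches to TATAA, the core of the TATA box. Postn is shown at chr3:54360987-54361106 on the plus strand, Tnc at chr4:64047016-64047135 on the minus strand and Thbs3 at chr3:89215060-89215179 on the plus strand.
Postn: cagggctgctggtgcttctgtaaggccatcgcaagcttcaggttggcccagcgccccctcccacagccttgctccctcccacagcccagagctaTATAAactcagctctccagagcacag
Tnc: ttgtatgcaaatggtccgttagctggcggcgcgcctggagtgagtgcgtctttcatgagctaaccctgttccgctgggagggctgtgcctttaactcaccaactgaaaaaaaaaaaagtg
Thbs3: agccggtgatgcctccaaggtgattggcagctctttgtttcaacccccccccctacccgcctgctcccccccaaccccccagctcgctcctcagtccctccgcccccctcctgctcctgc
TATAA, searched on both strands, was found in the Postn stretch, with its first base 26 bases before the start, and not in the printed stretches of Tnc and Thbs3. The stretch of the other Tnc start, at chr4:64046937-64047056, does hold it, with its first base 27 bases before that start, and the stretch of the other Postn start, at chr3:54359147-54359266, does not. It occurs in 11.8% of 32851 RefSeq promoters over the same 120 bases. CAGAC, the core of the Smad binding element, and CATTCC, the core of the TEAD element, were searched on both strands as well, and neither occurs in the 3 printed stretches. CAGAC occurs once at the other Tnc start, 70 bases before it, and once in the stretch of Sparc, 35 bases before its start. The stretch of Thbs2, not printed, holds 2 matches to CAGAC, 66 and 43 bases before its start. CAGAC and CATTCC occur in 22.4% and 5.82% of the promoters. The GC content was 60.8% for Postn, 50.8% for Tnc and 68.3% for Thbs3.

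The comparison of bleomycin with PBS asked how injection of bleomycin changed skin RNA. Sparc, the most abundant of these genes in control skin, fell 7.40-fold and Cthrc1 fell 26.7-fold. Fibronectin and Thbs3 had lower values in all 3 bleomycin libraries than in PBS, at log2 differences of -1.35 and -1.87, without passing the test. Postn, Tnc and Thbs1 had higher means, and did not pass either. In the limma fit across 23185 genes, 2 of the 10 members passed an adjusted p of 0.05, both lower, against 0.677% of all genes tested in either direction, 0.453% as higher and 0.224% as lower. At an unadjusted p under 0.05 there were 5 members, where 6.82% of all genes passed. Libraries did not overlap for 1 member that was higher (Postn) and 4 that were lower (Sparc, Thbs3, Fn1 and Cthrc1), where 12% and 11.6% of all genes did so. The median log2 difference of the members was -0.63, and that of all genes was 0.00 to 2 decimals.

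**Figure D1:**
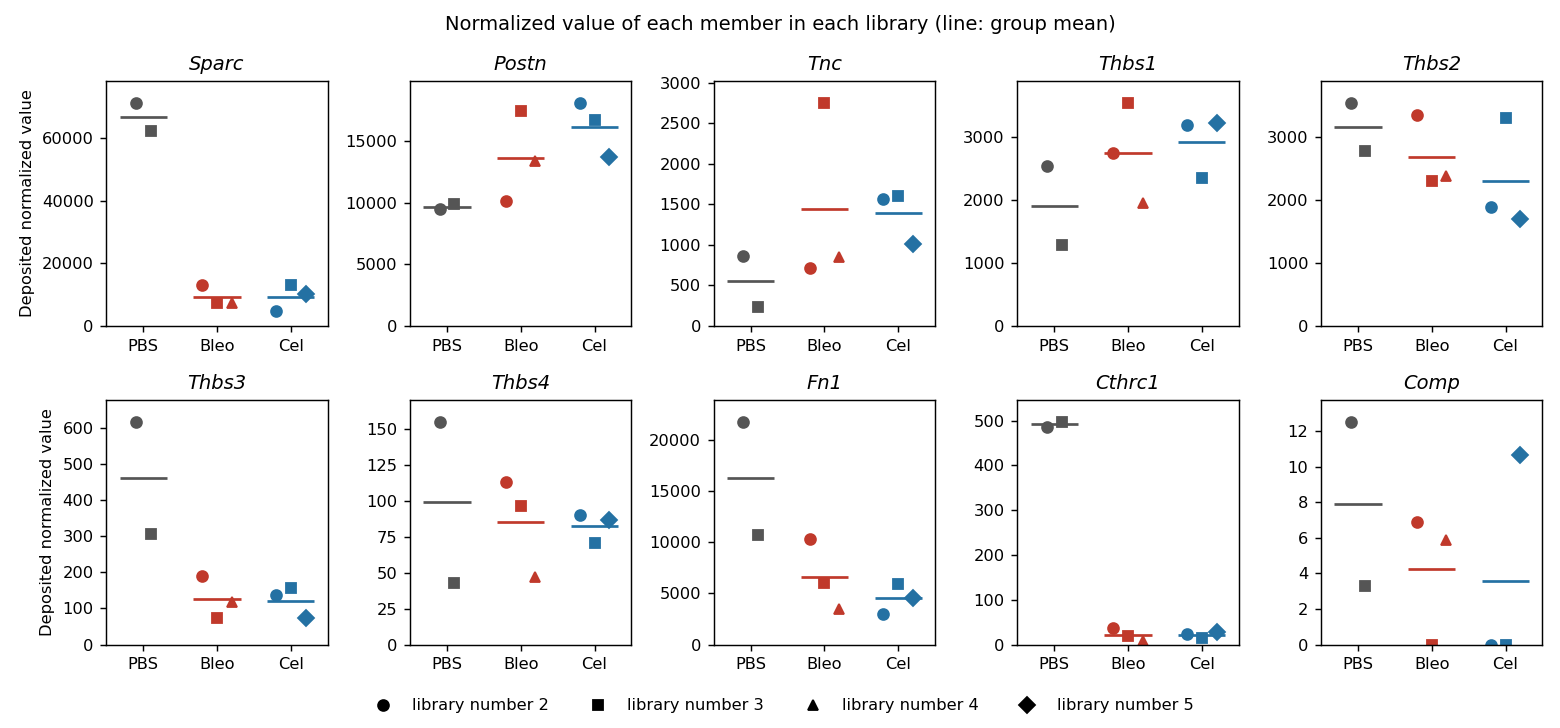
Deposited normalized value (linear axis from 0, with its own range in each panel) of the 10 members in each library, with symbols for the library number and a line at the group mean. Sparc and Cthrc1 in the PBS libraries lie far above all bleomycin and celastrol libraries, and Postn in PBS lies below all of them.

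Sparc encodes a collagen-binding glycoprotein also called osteonectin (ENSMUSG00000018593, mm10 chr11:55394500-55423183, minus strand). Its value was 71156 in PBS 2 and 62272 in PBS 3. In bleomycin it was 13138 in library 2, 7509.6 in library 3 and 7379.5 in library 4. All bleomycin libraries lay far below both PBS libraries, with no overlap. The mean fell from 66714 ± 6282 (SD, n = 2) to 9342 ± 3287 (SD, n = 3), a log2 change of -2.89 ± 0.37 (SE) or 7.40-fold lower, with an adjusted p of 0.0109 in limma. By p it ranked 24 among the 23185 genes. The adjusted p was 0.0871 without PBS 3, 0.0533 without Bleomycin 3 and 0.0675 without Bleomycin 4, at log2 changes of -2.98, -2.76 and -2.74.

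Cthrc1 encodes a secreted protein with a short collagen triple helix, known for its induction in injured arteries and for binding Wnt receptor complexes (ENSMUSG00000054196, chr15:39076932-39087121, plus strand). Its value was 487 in PBS 2 and 498 in PBS 3, which rest on about 700 and 451 reads. In bleomycin it was 35.8 in library 2, 19.6 in library 3 and 7.35 in library 4, or about 52, 15 and 10 reads. The groups did not overlap, and the bleomycin libraries themselves spanned 4.87-fold. The log2 change was -4.74 ± 0.81 (SE), 26.7-fold lower, from 492 ± 7.64 (n = 2) to 20.9 ± 14.3 (SD, n = 3), with an adjusted p of 0.0310 in limma. That p was 0.241 without PBS 2, 0.322 without PBS 3, 0.0813 without Bleomycin 3, 0.136 without Bleomycin 4 and 0.0533 without Celastrol 5, which enters through the shared estimate of the spread. It was 0.0518 with a pseudocount of 0.1 and 0.0524 when the celastrol libraries were left out of the fit.

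Fn1 encodes fibronectin itself (ENSMUSG00000026193, chr1:71585520-71653200, minus strand). It stood at 21777 in PBS 2 and 10717 in PBS 3. The bleomycin values were 10346, 5998 and 3499.9 in libraries 2, 3 and 4. Bleomycin 2 lay just under PBS 3, so the groups were separated only narrowly. The log2 difference was -1.35 ± 0.44 (SE), with an adjusted p of 0.362, and Fn1 did not pass. Without PBS 2 the difference was -0.83. Under library weights the difference was -1.90 with an adjusted p of 0.0282. A gene on the opposite strand, Apol7d, overlaps Fn1 by 364 bases and was not analysed here, and the use of strand in counting is not given in the sources used here.

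Postn encodes periostin, a matricellular protein that binds integrins and collagen and takes part in collagen cross-linking (ENSMUSG00000027750, chr3:54361109-54391037, plus strand). It measured 9447 and 9889.6 in the PBS libraries. In bleomycin it measured 10124, 17400.1 and 13361 in libraries 2, 3 and 4. Bleomycin 2 was almost level with PBS 3, and the other bleomycin libraries were well above both. The means were 9669 ± 313 (n = 2) and 13628 ± 3645 (SD, n = 3), and the log2 difference of 0.46 ± 0.22 (SE) did not pass in limma (adjusted p = 0.819) and was 0.27 without Bleomycin 3.

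Tnc encodes tenascin-C, a hexameric glycoprotein that appears in healing wounds (ENSMUSG00000028364, chr4:63959785-64047015, minus strand). It was 860.3 in PBS 2 and 239 in PBS 3. The bleomycin libraries gave 713, 2745 and 852. The groups overlapped, the PBS libraries spanned 3.59-fold, and the high bleomycin mean rested on library 3. The log2 difference was 1.38 ± 0.60 (SE) with an adjusted p of 0.686 in limma. It was 2.30 without PBS 2, 0.46 without PBS 3 and 0.78 without Bleomycin 3. On the opposite strand, 8030451A03Rik overlaps Tnc by 67162 bases and was not analysed here. The summed value of 6 measured neutrophil markers was also highest in Bleomycin 3, at 6084, against 1422 and 2024 in the other bleomycin libraries and 933 and 1324 in PBS, and its part in the Tnc values was not tested.

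The thrombospondins are secreted calcium-binding glycoproteins of 2 subgroups: Thbs1 and Thbs2 form trimers, inhibit blood vessel growth and bind CD47 and CD36, while Thbs3, Thbs4 and Comp form pentamers. Thbs1, which activates latent transforming growth factor beta (ENSMUSG00000040152, chr2:118111876-118127133, plus strand), was 2538 and 1289 in PBS and 2752, 3538 and 1957 in bleomycin. Those groups overlapped, at a log2 difference of 0.56 ± 0.32 (SE) and an adjusted p of 0.959. That difference was 1.05 without PBS 2, 0.0738 without PBS 3 and 0.36 without Bleomycin 3. Gm29233, on the opposite strand, overlaps Thbs1 by 597 bases and was not analysed here. Thbs2 (ENSMUSG00000023885, chr17:14665500-14694235, minus strand), whose loss in mice gives abnormal collagen fibrils in skin, was 3528 and 2779 in PBS and 3336, 2295 and 2382 in bleomycin. It overlapped too, at -0.25 ± 0.29 (SE) and an adjusted p of 1. It was -0.0786 without PBS 2, -0.42 without PBS 3 or without Bleomycin 2, and -0.15 without Bleomycin 3. The value of Thbs1 over that of Thbs2 in the same library was 0.719 and 0.464 in PBS, 0.825, 1.54 and 0.822 in bleomycin, and 1.69, 0.712 and 1.91 in celastrol. Every bleomycin library lay above both PBS libraries in this ratio, and Celastrol 3 did not.

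Thbs3, expressed in developing bone among other tissues (ENSMUSG00000028047, chr3:89215180-89226837, plus strand), was 617 in PBS 2 and 307 in PBS 3. Its bleomycin values were 191, 73.2 and 118 in libraries 2, 3 and 4. All bleomycin libraries were lower than both PBS libraries, but the PBS libraries differed from each other by 2.01-fold. The log2 difference of -1.87 ± 0.54 (SE) did not pass (adjusted p = 0.241), although with library weights the adjusted p was 0.0388. Thbs3 lies wholly inside the annotated span of Mtx1 on the opposite strand, which encodes a mitochondrial outer membrane protein. Mtx1 read 123 and 125 in PBS, 86.8, 95.4 and 91.9 in bleomycin, and 182, 91.1 and 118 in celastrol. Reads from any stretch where exons of the pair overlap cannot be told apart without strand, and the overlap of their exons was not computed.

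Thbs4, known for its place in tendon and muscle matrix (ENSMUSG00000021702, chr13:92751590-92794818, minus strand), was 155 and 43.0 in PBS and 113, 96.7 and 47.0 in bleomycin. PBS held both the highest and the lowest library, and the log2 difference was -0.03 ± 0.68 (SE) with an adjusted p of 1. Leaving out a single PBS library moved that difference to -0.94 or to 0.88. Comp, cartilage oligomeric matrix protein (ENSMUSG00000031849, chr8:70373558-70382066, plus strand), was 12.5 and 3.31 in PBS and 6.89, 0 and 5.88 in bleomycin. These are about 18 and 3 reads against 10, 0 and 8 reads. A count of 0 allows a value of up to 3.92 in Bleomycin 3, and Comp passed the filter through PBS 2 and Celastrol 5 only, so no difference in Comp was detectable at this depth.

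The comparison of celastrol with PBS asked how skin of the celastrol group differed from control skin. It shares its PBS libraries with the comparison above, and the values of both are therefore given side by side without a test of their likeness. Again Sparc and Cthrc1 passed as lower and no member passed as higher, 2 of 10 against 1.37% of all genes in either direction, 0.824% as higher and 0.543% as lower. At an unadjusted p under 0.05 there were 6 members, where 12% of all genes passed. Libraries did not overlap for 2 higher members (Postn and Tnc) and 4 lower ones (Sparc, Thbs3, Fn1 and Cthrc1), against 13.2% and 13.7% of all genes. The members' median log2 difference was -1.13 and that of all genes -0.07. Of all genes, 191 were called as higher and 126 as lower, and with values rescaled to the same sum in every library 139 and 138 were.

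Sparc was 4946 in Celastrol 2, 13110 in Celastrol 3 and 10127 in Celastrol 5, all below both PBS libraries. Its mean of 9394 ± 4131 (SD, n = 3) was 7.66-fold lower than in PBS, with a log2 change of -2.94 ± 0.37 (SE) and an adjusted p of 0.00645 in limma. Without PBS 3 the adjusted p was 0.0504 and without Celastrol 5 it was 0.0512, at changes of -3.03 and -3.05. Cthrc1 was 22.98, 13.5 and 28.5 in the same libraries, from about 14, 8 and 40 reads. All lay far below both PBS libraries, and the log2 change was -4.51 ± 0.81 (SE), 22.7-fold lower, with an adjusted p of 0.0260. The latter became 0.195 without PBS 2, 0.244 without PBS 3, 0.0771 without Celastrol 5 and 0.0547 after quantile normalization.

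Fn1 was 2995, 5953 and 4580.2 in Celastrol 2, 3 and 5, each below PBS 3. The log2 difference was -1.82 ± 0.44 (SE) with an adjusted p of 0.0888, and without Bleomycin 2 in the fit the adjusted p was 0.0299. Thbs3 was 136, 155 and 73.3, at -1.90 ± 0.54 (SE) and an adjusted p of 0.157 in limma. Both genes thus lay outside the PBS range in every celastrol library without passing the threshold.

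Postn was 18058, 16682 and 13741 in Celastrol 2, 3 and 5, all above both PBS libraries, with a mean of 16160.4 ± 2205 (SD, n = 3). The log2 difference was 0.73 ± 0.22 (SE) and the adjusted p 0.193. Tnc was 1564, 1598 and 1009.7, all above the higher PBS library, at 1.58 ± 0.60 (SE) and an adjusted p of 0.311 in limma. The Tnc difference was 2.502 without PBS 2 and 0.66 without PBS 3. Periostin and tenascin-C libraries were thus separated from PBS, but neither gene passed.

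Thbs1 was 3194, 2347 and 3225 in Celastrol 2, 3 and 5, and Celastrol 3 lay below PBS 2. The log2 difference was 0.68 ± 0.32 (SE), with an adjusted p of 0.435, and was 1.17 without PBS 2 and 0.19 without PBS 3. Thbs2 was 1886, 3298 and 1688, where Celastrol 3 lay inside the PBS range and the others below it. That difference was -0.52 ± 0.29 (SE), with an adjusted p of 0.535, and it was -0.34 without PBS 2, -0.81 without Celastrol 3 and -0.33 without Celastrol 5. Thbs4 was 90.3, 70.9 and 86.8, all between the PBS libraries, at 0.01 ± 0.68 (SE) and an adjusted p of 0.998. With values rescaled to the same sum Thbs4 gave -0.10, where the median of all genes shifted by -0.11, and relative to that scaling's median it gave 0.07. Comp was at 0 in Celastrol 2 and Celastrol 3, which allows values of up to 4.92 and 5.06, and at 10.7 or about 15 reads in Celastrol 5.

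**Figure D2:**
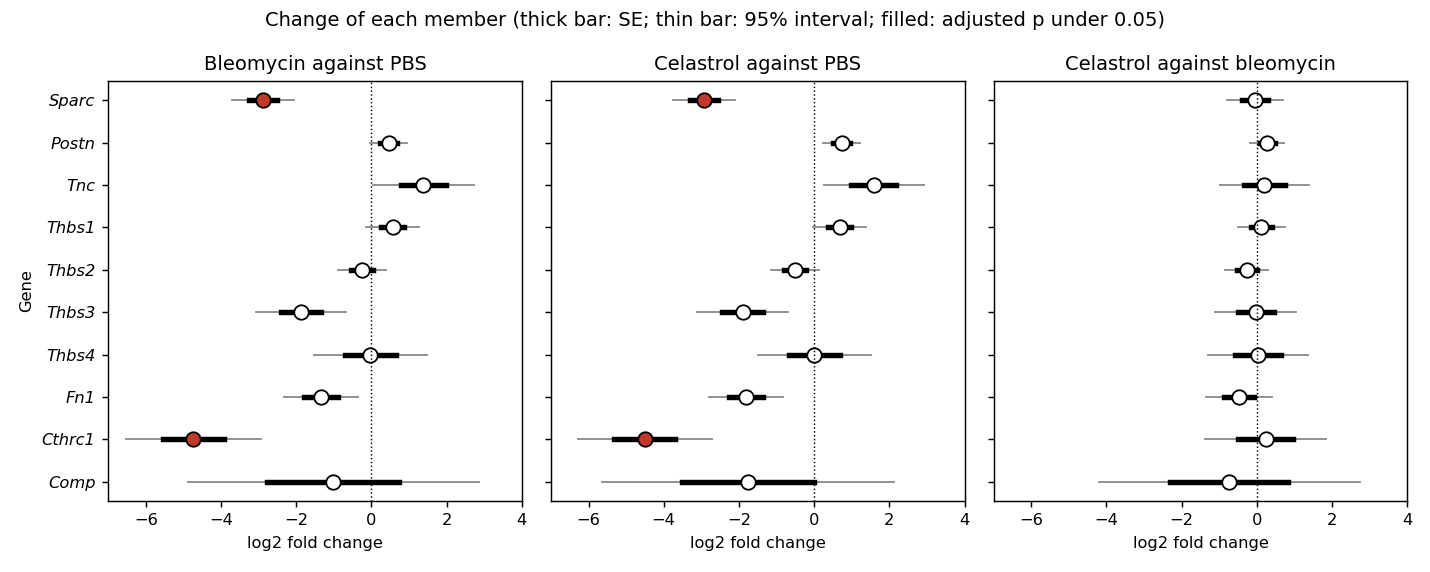
Log2 fold change of each member (horizontal axis) in the 3 comparisons, with a thick bar for the standard error and a thin bar for the 95% interval of the limma fit; filled points passed an adjusted p of 0.05. Sparc and Cthrc1 passed as lower in both comparisons with PBS, and every interval for celastrol against bleomycin includes 0. The point of Comp rests on 0 to 18 reads and depends on the pseudocount.

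Celastrol was compared directly with bleomycin, within the limit that the labels do not say whether the celastrol mice had received bleomycin. No member passed, 0 of 10 in limma, where 0% of all genes passed. All 10 members overlapped, where 4.13% of all genes lay apart as higher and 4.59% as lower. At an unadjusted p under 0.05 there were 898 genes (3.87%) and 0 members, and the adjusted p of the members lay between 0.975 and 0.999. The members' median log2 difference was 0.00, against -0.04 over all genes. Those p-values do not show that the groups are alike, and the 95% intervals give what the data allow.

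Sparc differed by -0.05 on the log2 scale, with a 95% interval from -0.79 to 0.69. Postn differed by 0.27, with an interval from -0.17 to 0.72, which is the narrowest of the 10. Thbs1 gave 0.11 (-0.51 to 0.74) and Thbs2 -0.27 (-0.83 to 0.30). For these 4 genes the interval stayed within 1 log2 unit in either direction. Fn1 gave -0.47 (-1.34 to 0.40) and Tnc 0.20 (-0.99 to 1.39). Thbs3 gave -0.03 (-1.10 to 1.05), Thbs4 0.04 (-1.30 to 1.37) and Cthrc1 0.23 (-1.37 to 1.83). The interval of Comp, -4.21 to 2.73, is too wide to describe a difference. With values rescaled to the same sum, the median of all genes shifted by -0.12 in this comparison, and the sign of Thbs1 (-0.01) and Thbs4 (-0.09) turned. Relative to the median of all genes under that scaling they gave 0.15 and 0.07.

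**Figure D3:**
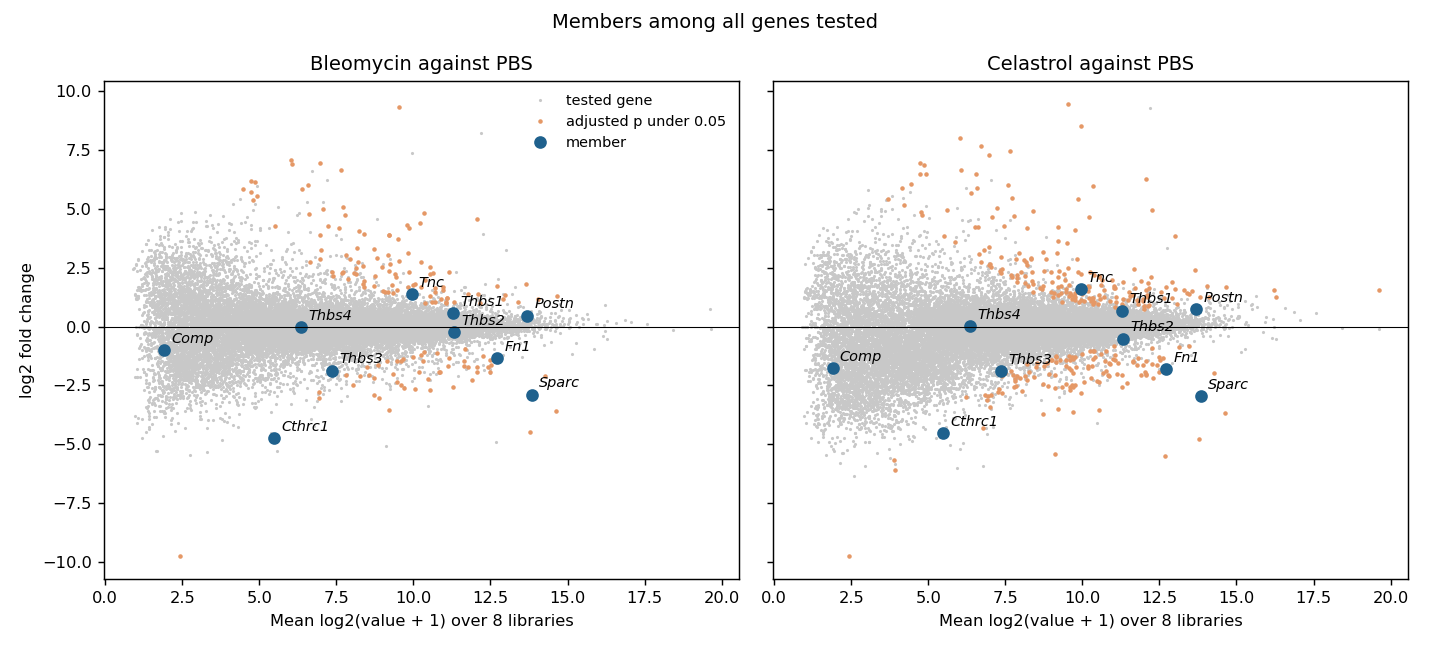
Log2 fold change against PBS (vertical axis) by mean log2(value + 1) over the 8 libraries (horizontal axis) for all 23185 genes tested, for bleomycin and for celastrol, with genes past an adjusted p of 0.05 in orange and the members in blue. Sparc and Fn1 lie among the highly expressed genes and below most of them, and Thbs4 lies on the line of no change.

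Levels were compared between genes per kilobase of exon (GENCODE M21). In PBS, Sparc led with 17612 ± 1658 per kb (SD, n = 2), far above Fn1 at 1390.4 ± 669 and Postn at 1111 ± 35.9, whose libraries overlapped. Thbs2 followed at 450.3 ± 75.6, Thbs1 at 315 ± 145 and Cthrc1 at 309 ± 4.80, with Thbs1 overlapping each of its neighbours. Thbs3 (95.8 ± 45.5), Tnc (70.7 ± 56.5) and Thbs4 (30.1 ± 24.1) came next, with Tnc overlapping both of the others, and Comp was last at 2.67 ± 2.19. In control skin Sparc lay clear of the rest at the top and Comp at the bottom.

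In bleomycin, Sparc at 2466 ± 868 per kb and Postn at 1566 ± 419 (SD, n = 3) overlapped at the top. Fn1 (566 ± 296), Thbs1 (453 ± 130.2) and Thbs2 (381 ± 82.4) came next, each overlapping its neighbour, and Tnc followed at 185 ± 146. The lowest levels were Thbs3 at 26.4 ± 12.3, Thbs4 at 26.01 ± 10.4, Cthrc1 at 13.1 ± 8.96 and Comp at 1.43 ± 1.25. In bleomycin Tnc overlapped Thbs2, and Thbs3, Thbs4 and Cthrc1 overlapped each other. By mean, Cthrc1 had rank 6 in PBS and rank 9 in bleomycin, while Tnc had ranks 8 and 6. In celastrol the order was Sparc (2480.0 ± 1091), Postn (1857 ± 253), Thbs1 (481 ± 82.1), Fn1 (386 ± 127), Thbs2 (327 ± 125), Tnc (179 ± 42.5), Thbs3 (25.2 ± 8.89), Thbs4 (25.1 ± 3.15), Cthrc1 (13.6 ± 4.75) and Comp (1.20 ± 2.08). There Sparc and Postn overlapped, Fn1 overlapped both Thbs1 and Thbs2, and Thbs3 overlapped Thbs4. The celastrol libraries of Tnc lay clear of those of Thbs2 and Thbs3. Those of Cthrc1 lay clear of both Thbs4 and Comp but overlapped those of Thbs3.

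The makeup of the set can also be read within each library, where scaling between libraries plays no part. The 10 genes together held 0.473% and 0.368% of all values in PBS, 0.178%, 0.164% and 0.128% in bleomycin, and 0.132%, 0.171% and 0.131% in celastrol. Sparc made up 64.3% and 70.7% of that sum in PBS, 32.2%, 18.9% and 24.9% in bleomycin, and 15.0%, 30.3% and 29.3% in celastrol. Postn made up 8.54% and 11.2% in PBS, 24.8%, 43.9% and 45.1% in bleomycin, and 54.9%, 38.6% and 39.7% in celastrol. The share of Sparc was thus highest in both PBS libraries and that of Postn lowest there, with no overlap with either treated group. Because both are shares of the same sum, a lower Sparc alone raises the share of Postn. It also raises the ratio of Postn to Sparc. Postn over Sparc was 0.133 and 0.159 in PBS, 0.771, 2.32 and 1.81 in bleomycin, and 3.65, 1.27 and 1.36 in celastrol. The highest ratio belonged to Celastrol 2, the library that stood apart on the first principal component.

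**Figure D4:**
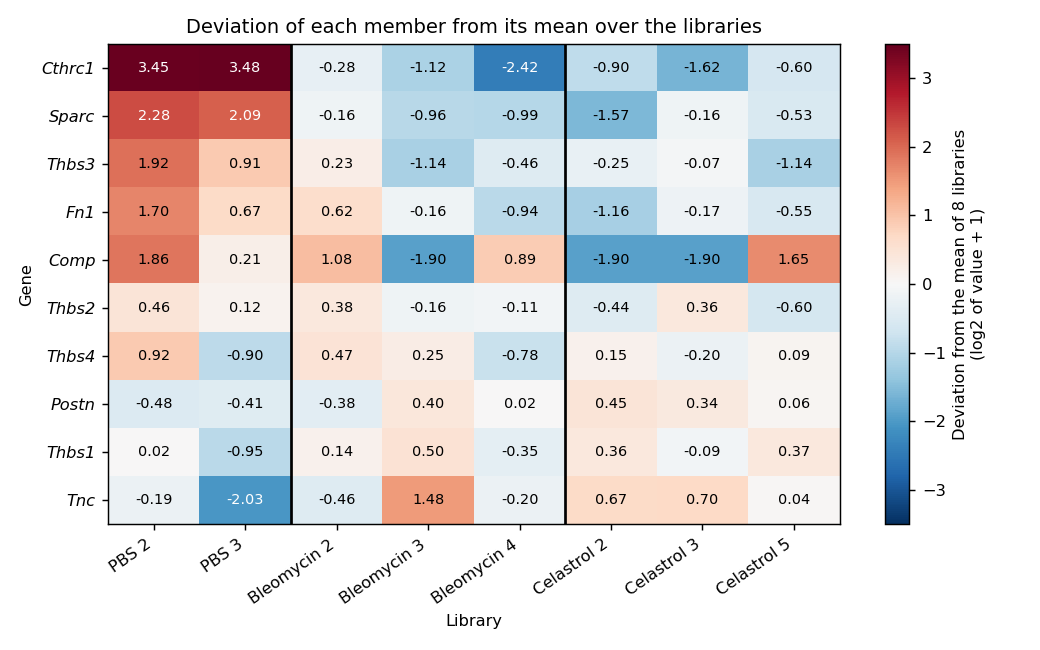
Deviation of each member in each library from its mean over the 8 libraries, in log2(value + 1), red above and blue below the mean. Cthrc1 and Sparc are high in both PBS libraries, Thbs3 and Fn1 are higher in PBS 2 than in PBS 3, and Tnc is lowest in PBS 3 and highest in Bleomycin 3.

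The PBS libraries did not deviate alike for every member. PBS 2 exceeded PBS 3 by 1.14-fold for Sparc, and the libraries were within 1.05-fold for Postn and 1.02-fold for Cthrc1. For Thbs1, Thbs3 and Fn1 PBS 2 was higher by 1.97-fold, 2.01-fold and 2.03-fold, and for Tnc and Thbs4 by 3.59-fold and 3.60-fold.

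Among the members, the closest profiles over the 8 libraries were those of Postn and Thbs1, with a root mean square difference of 0.40 between their centred log2 values. Thbs1 and Thbs4 followed with 0.40 and Thbs3 and Fn1 with 0.57. Among 13160 other genes, Sparc was nearest to Serpina3j (0.33), Serpinf1 (0.33) and Rian (0.36). Serpinf1, which encodes pigment epithelium-derived factor, was 3203 and 2622 in PBS, 406 to 702 in bleomycin and 330 to 945 in celastrol. Fn1 was nearest to the collagen gene Col6a3 (0.23), and Thbs3 to Podn (0.18), a small leucine-rich proteoglycan, and Mmp14 (0.28), a membrane-bound collagenase. Cthrc1 had no close profile, the nearest being Col3a1 at 0.80, Col1a2 at 0.91 and the tendon gene Tnmd at 0.93.

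Postn was nearest to Scn3a (0.07), Pcna (0.09) and Impa1 (0.09). Pcna, the sliding clamp of DNA replication, was 1154 and 1241 in PBS, 1452 to 2164 in bleomycin and 1742 to 2170.4 in celastrol. Genes near to Tnc included Mcm10 (0.28), a replication factor, and Tgm3 (0.28), a transglutaminase of the epidermis. Thbs1 was nearest to Tmprss4 (0.13), Klk10 (0.13) and Eif3k (0.16), and Thbs2 to Mark1 (0.11), Ccdc8 (0.11) and Dvl2 (0.13). Thbs4 was nearest to Vac14, Smpd3 and Sdc1 (0.18 to 0.19), and Comp to Grwd1 (0.41), Dolk (0.61) and Btnl9 (0.63). All these distances rest on the same 8 libraries, and a gene of small spread lies close to many others.

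Markers of dermal fibroblasts moved with the members that were lower. Of 11 markers, 4 (Cd34, Dpt, Lum and Prrx1) fell in each comparison with PBS, and the libraries of 10 lay below PBS in bleomycin and those of 9 in celastrol. The exceptions were Crabp1 in both comparisons, at log2 differences of 0.67 and 0.60, and Twist2 in celastrol, at -1.07. Of all genes, 0.224% in bleomycin and 0.543% in celastrol were called as lower than PBS. Libraries lay below PBS without overlap for 11.6% and 13.7% of all genes. Sparc divided by the summed fibroblast markers of its library was 1.51 and 1.31 in PBS, 0.744, 0.586 and 0.617 in bleomycin, and 0.310, 0.601 and 0.971 in celastrol. That ratio was lower in all 6 treated libraries than in both PBS libraries. For Cthrc1 the ratio was 0.0103 and 0.0105 in PBS and between 0.000615 and 0.00273 in the treated libraries. Fn1 behaved otherwise, with 0.463 and 0.226 in PBS, 0.586, 0.468 and 0.293 in bleomycin, and 0.188, 0.273 and 0.439 in celastrol, so that the groups overlapped. For Thbs3 the ratio was 0.0131 and 0.00646 in PBS and 0.00571 to 0.0108 in the treated libraries, which overlapped too. The part of fibroblast number or identity in these values was not tested.

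**Figure D5:**
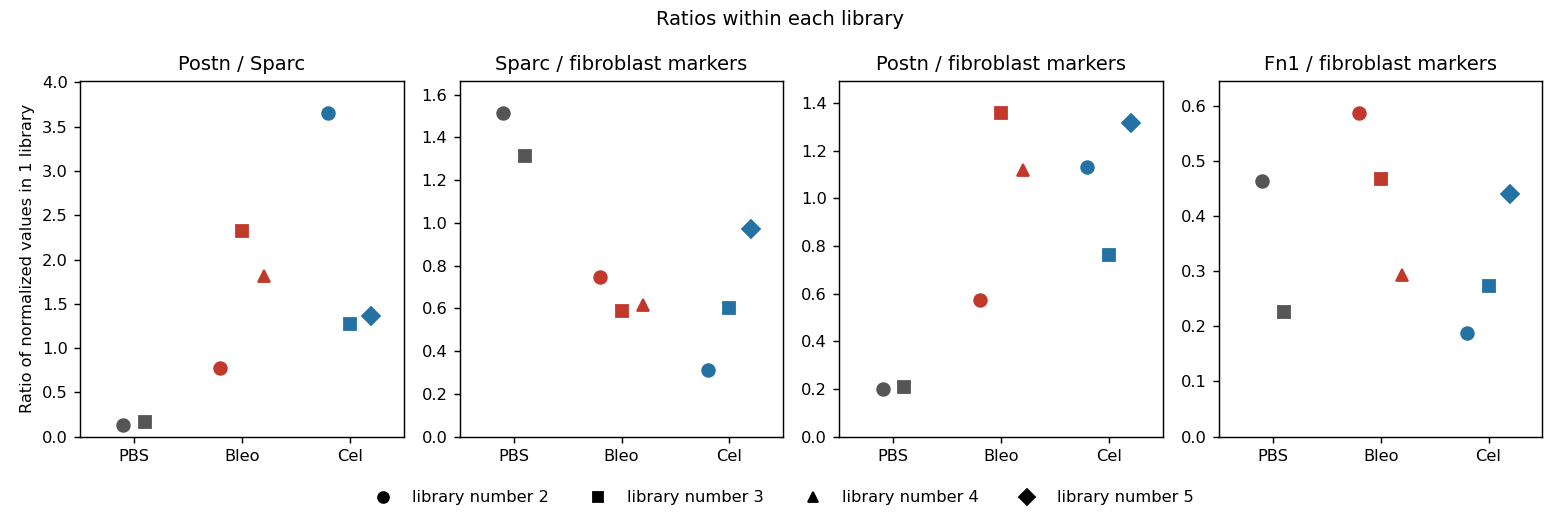
Ratios of normalized values within each library (linear axes from 0) for Postn over Sparc and for Sparc, Postn and Fn1 over the sum of 11 dermal fibroblast markers. Postn over fibroblast markers is 0.201 and 0.208 in PBS and 0.574 or more in every treated library, Sparc over the markers is highest in PBS, and the groups overlap for Fn1.

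Postn over the same sum was 0.201 and 0.208 in PBS, 0.574, 1.36 and 1.12 in bleomycin, and 1.13, 0.764 and 1.32 in celastrol. All treated libraries lay above PBS, as they did for Tnc, with 0.0183 and 0.00504 in PBS and 0.0404 to 0.214 in the treated libraries. Thbs1 over the markers was 0.0539 and 0.0271 in PBS and 0.108 to 0.309 in the treated libraries, and Thbs2 0.0750 and 0.0585 against 0.118 to 0.199. Neither ratio overlapped PBS, whereas the values of Thbs1 and Thbs2 themselves did. The summed markers were lower in every treated library than in PBS, so a gene with an unchanged value also gives a higher ratio.

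Summed markers of other cell types were also compared between groups, and several of the ranges overlap. The sum of 12 skeletal muscle markers was 89008 to 117176 in PBS, 113961 to 195462 in bleomycin and 209965 to 287466 in celastrol. In celastrol 5 of these markers rose against PBS, as did 0.824% of all genes. The sum of 9 smooth muscle and pericyte markers was 11394 to 13220 in PBS, 16978 to 24855 in bleomycin and 20764 to 28215 in celastrol. The 10 macrophage markers summed to 15414 to 19530.2 in PBS, 20643 to 26357 in bleomycin and 15779 to 25867 in celastrol. Platelet markers, which bear on Thbs1 as a platelet granule protein, stayed between 291 and 401 in all libraries. Markers of tendon and cartilage, which bear on Thbs4 and Comp, summed to 2749 to 3301 in PBS, 1693 to 2782 in bleomycin and 1480 to 2233 in celastrol, with Col2a1 at 0 in both PBS libraries. The part of these cell types in the members' values was not tested.

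The remaining genes of the pathway were described by lists. Of 29 other matricellular genes measured, 1 fell in bleomycin and none rose, and the median log2 difference was -0.09. In celastrol against PBS 1 fell and 1 rose, with a median of -0.49. Of all genes, 0.224% fell and 0.453% rose in bleomycin, and 0.543% fell and 0.824% rose in celastrol. Fstl1, a secreted glycoprotein related in sequence to Sparc, was 11954 and 13941 in PBS, 4527, 4074 and 3346 in bleomycin, and 3826, 6071 and 3232 in celastrol. It fell in both comparisons, by 1.71 ± 0.25 (SE) on the log2 scale in bleomycin (adjusted p = 0.0204) and with a log2 change of -1.61 ± 0.25 in celastrol (adjusted p = 0.0156). Smoc2, another relative of Sparc, gave -1.50 (adjusted p = 0.101) and -1.61 (adjusted p = 0.0562).

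Spp1, which encodes osteopontin, a phosphoprotein made by activated macrophages among other cells, was 122 and 36.4 in PBS, 366, 644 and 298 in bleomycin, and 396, 403 and 657 in celastrol. Every treated library exceeded both PBS libraries. It rose in celastrol against PBS, by 2.80 ± 0.52 (SE) on the log2 scale (adjusted p = 0.0323), and the difference of 2.61 ± 0.52 in bleomycin did not pass (adjusted p = 0.0616). Against bleomycin, celastrol gave 0 calls among the 29, where 0% of all genes passed, with a median of -0.26. The genes of smallest p there were Tnn (-2.78), Fbln7 (-2.56), Npnt (-0.47) and Igfbp7 (-0.50), all at an adjusted p of 0.975. The differences of Tnn and Fbln7 rest on low values. Tnn was 57.2, 69.3 and 33.8 in bleomycin and 9.85, 0 and 39.8 in celastrol. Fbln7 was 35.8, 49.7 and 14.7 in bleomycin and 0, 8.44 and 14.2 in celastrol.

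Of 14 collagens and proteoglycans that bind the members, 5 fell and none rose in bleomycin, where 0.224% of all genes fell. In celastrol against PBS 8 fell and none rose, where 0.543% of all genes fell. The median log2 difference of the 14 was -2.01 in both comparisons. Col3a1, a fibrillar collagen of skin and vessels, was 241499 and 113615 in PBS, 34443, 10378 and 7258 in bleomycin, and 10224, 21101 and 10557 in celastrol. It fell by 3.59 ± 0.58 (SE) on the log2 scale in bleomycin (adjusted p = 0.0274 in limma). Col1a2 fell by 4.46 ± 0.76, Col5a2 by 1.91 ± 0.33 and Lum by 2.28 ± 0.39 log2 units in the same comparison. In celastrol against PBS Col1a2, Col3a1 and Col5a2 fell again, and Col14a1 fell by 2.35 ± 0.44 log2 units (adjusted p = 0.0297 in limma). Of the 14, 0 passed between celastrol and bleomycin, where 0% of all genes passed, at a median of -0.12. Lum is also among the fibroblast markers and Fmod among those of tendon and cartilage.

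Among 25 receptors of these proteins 0 passed in each of the 3 comparisons, with medians of 0.03 for bleomycin and -0.22 for celastrol against PBS and 0.02 between them. Of all genes, 0.677% passed in bleomycin and 1.37% in celastrol against PBS, and 0% between them. A result of 0 among 25 is near those shares. Cd47, the thrombospondin receptor, was 8028 and 8145 in PBS and 5638 to 7080 in bleomycin, at a log2 difference of -0.37 (adjusted p = 0.672). Cacna2d1, a calcium channel subunit that also binds thrombospondins, was 2965 and 4842 in PBS, 4411 to 4917 in bleomycin and 6216 to 8663 in celastrol. Its difference in celastrol against PBS was 1.02 ± 0.23 (SE), with an adjusted p of 0.0624. Itgb3, an integrin subunit that binds fibronectin and periostin, gave -0.68 (adjusted p = 0.815) and -0.77 (adjusted p = 0.387) in bleomycin and celastrol.

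Of 19 inducers of matricellular genes, in the transforming growth factor beta, actin and Hippo, and type 2 cytokine pathways, 0 passed in each comparison, with medians of -0.15, -0.23 and 0.07. In the same order, 0.677%, 1.37% and 0% of all genes passed, and 0 among 19 is near those shares. Tgfb2 was 950.0 and 1169.6 in PBS, 616, 319 and 463 in bleomycin, and 625, 795 and 362 in celastrol. Each treated library was below both PBS libraries, at -1.23 (adjusted p = 0.268) and -0.90 (adjusted p = 0.356). Il4ra, a receptor chain of the interleukins that induce periostin, gave 0.82 in bleomycin (adjusted p = 0.639) and 0.74 in celastrol (adjusted p = 0.430). Tgfb1 gave -1.02 between celastrol and bleomycin, with an adjusted p of 0.975.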

How the data were processed

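Total RNA from skin homogenates, extracted with TRIzol and made into libraries with a Vazyme total RNA kit per the labels' protocols, was sequenced in 8 libraries (2 PBS, 3 bleomycin, 3 celastrol). The deposited values are a normalized signal per gene: the authors divided gene counts by DESeq2 size factors in their poscounts form, as the deposited table's own name states. Partek 10.0.22, STAR 2.7.3a and the build mm10 are listed per the submitters' processing notes. The counting settings, gene annotation and use of strand are not given in the sources used here. Values below 1000 reads came within 0.03 reads of a whole number in 58.6% to 67.0% of genes per library, so raw counts could not be recovered and no count model was used. The smallest maximum of any gene was 10.3.

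Differences were tested with limma 3.58.1 in R 4.3.3 (lmFit, eBayes with a mean-variance trend, two-sided) on log2(value + 1), so that folds of low genes are understated. All 8 libraries entered 1 fit without covariates. A gene entered the tests with a value of 10 or more in 2 or more libraries, which kept 23185, with Benjamini-Hochberg adjustment over them and a threshold of 0.05. The procedure was tested on simulated data for bleomycin against PBS only, with equal and independent spread in all libraries of a gene. That simulation held no library that stood apart as Celastrol 2 did, so it does not cover such a case. The members and gene lists were chosen with earlier results of these data known. Named genes were the members, the 3 genes nearest to each in profile (mean of at least 50, without predicted, ribosomal and mitochondrial genes) and up to 4 genes of smallest p from each pathway list, of which the text gives part; 1 gene near to Tnc is not reported here. Positions and exon lengths were taken from GENCODE M21, which matched all 10 members by symbol and position. Read counts are values divided by the value of 1 read, and a count of 0 was taken to allow 3 reads, for counting error only. Alternatives were other pseudocounts, filters, scalings, library weights, a fit of only the compared groups, the library number as a block, and libraries left out.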

Additional observations from a re-analysis of the deposited data

How the results depend on the processing

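In 18 alternatives (14 for Comp, not tested in 4), Sparc, Cthrc1, Fn1 and Thbs3 stayed lower, and Postn, Tnc and Thbs1 higher, than PBS in both comparisons, Sparc by -3.16 to -2.74 in bleomycin and -3.23 to -2.53 in celastrol. For bleomycin against PBS, the 157 genes called became 46 with only the compared groups in the fit, 711 with library weights, 17 with the replicate block and 0 without Bleomycin 3, Celastrol 2 and Celastrol 3 together, the libraries of lowest depth. The 2 members called became 1 with only the compared groups, 4 with library weights (Fn1 and Thbs3 added), 1 with a pseudocount of 0.1, 0 with the block and 0 without the low-depth libraries. For celastrol against PBS, the 317 genes became 159 with only the compared groups and 41 with the block. The 2 members became 1 after quantile normalization and 0 with the block. Without the low-depth libraries, Celastrol 5 was the only celastrol library left, so no celastrol count is given for that setting. The celastrol differences named for it rest on that library alone. With 1 library left out at a time, bleomycin against PBS gave 16 to 229 genes and 0 to 2 members, celastrol against PBS 38 to 418 genes and 0 to 3 members, and celastrol against bleomycin 0 to 1 genes and 0 to 0 members. The bleomycin count was 70 without PBS 2, 18 without PBS 3, 33 without Bleomycin 3, 16 without Bleomycin 4 and 103 without Celastrol 5, and the celastrol count 104 without PBS 2, 38 without PBS 3, 158 without Bleomycin 4, 143 without Celastrol 2 and 39 without Celastrol 5. Sparc under the block was -2.74 (adjusted p = 0.146) in bleomycin and -3.05 (adjusted p = 0.0937) in celastrol, and Cthrc1 -4.16 (0.249) and -4.73 (0.131). The numbers 4 and 5 each occur in 1 library only, so Bleomycin 4 and Celastrol 5 add nothing to the differences under the block. Its lower counts therefore also reflect the loss of these libraries. The numbers are not shown to pair libraries: same-numbered libraries deviated together with correlations of -0.00485 to 0.203 over 23185 genes. Signs turned for values near 0 and, in celastrol, for Comp (-1.75 against PBS, -0.74 against bleomycin) and Fn1 (-0.47 against bleomycin). In celastrol against bleomycin these were Sparc with library weights (0.28) and without the low-depth libraries (0.0406), Thbs1 with equal sums (-0.00808) and the block (-0.19), Thbs3 with quantiles (0.0348) and the block (0.30), Thbs4 with equal sums (-0.0854) and the block (-0.38), Fn1 with weights (0.16), Cthrc1 with the block (-0.56), and Comp with quantiles (0.55) and without the low-depth libraries (0.66). Against PBS these were Thbs4 in bleomycin with the block (0.35), Thbs4 in celastrol with a pseudocount of 10 (-0.0206), equal sums (-0.10) and the block (-0.0338), and Comp in celastrol without the low-depth libraries (0.61). Single libraries left out turned Thbs4 in bleomycin (-0.94 to 0.88) and celastrol (-0.91 to 0.92) against PBS, and between celastrol and bleomycin Sparc (-0.35 to 0.36), Tnc (-0.17 to 0.80), Thbs1 (-0.11 to 0.32), Thbs3 (-0.37 to 0.32), Thbs4 (-0.34 to 0.28) and Cthrc1 (-0.34 to 0.73). Equal sums shifted the median of all genes by -0.12 for celastrol against bleomycin and -0.11 against PBS. The causes were not tested; a fit of fewer libraries has fewer degrees of freedom. Depth limits Comp, at 0 to 18 reads, and Cthrc1 in treated libraries, at 8 to 52 reads.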
